A study of Mus musculus with 9 samples.

Results

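The unfolded protein response and the integrated stress response were followed across healthy liver, untreated hepatocellular carcinoma (HCC) and miR-22-treated HCC through 35 genes chosen by symbol from the count table, which holds 55401 genes. The 35 genes fall into 4 arms: 14 endoplasmic reticulum (ER) chaperones and folding enzymes, 9 genes of ER-associated degradation (ERAD), 5 stress sensors and transcription factors made at the ER membrane, and 7 genes of the ATF4 arm. They occupy 36 rows of the table, since *Ddit3* has a second identifier with 0 counts in every liver. All 35 genes passed the filter on low counts and were tested, as were 15717 genes in all.

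The ER folds secreted and membrane proteins, and the hepatocyte, which secretes most plasma proteins, is rich in it. When unfolded proteins accumulate, 3 sensors in the ER membrane act. IRE1 (gene *Ern1*) splices the mRNA of *Xbp1*, ATF6 is cut to release a transcription factor, and PERK (gene *Eif2ak3*) phosphorylates the translation factor eIF2α. ATF6 and spliced XBP1 raise chaperone and ERAD genes. Phosphorylated eIF2α lowers protein synthesis in general while allowing translation of ATF4, which raises genes of amino acid supply and the factor CHOP (gene *Ddit3*). Other kinases that sense amino acid shortage, heme shortage or viral RNA also phosphorylate eIF2α, and this wider circuit is the integrated stress response. Counts per gene show neither the splicing of *Xbp1*, nor the cleavage of ATF6, nor the translation of *Atf4*.

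RNA was sequenced from 9 liver samples of female mice, 3 in each group. In both HCC groups the tumors were raised by hydrodynamic tail vein injection of sleeping beauty transposon plasmids, with activated AKT (myr-AKT) and Nras-v12 as the oncogenes of this RAS/AKT model, in mice aged 6 weeks. At 1 week after the oncogenes each of these mice received 1 intravenous dose of adeno-associated virus serotype 8 (AAV8), which was blank in untreated HCC and carried miR-22 in miR-22-treated HCC, and livers were taken at 5 weeks, 4 weeks after the virus. The protocol also lists a plasmid for N90-β-catenin, which the series' own description of these tumors does not name. Healthy mice were wild type and received no treatment, so that they differ from both HCC groups in the injection and in the virus as well as in the tumors, and the labels give them no age at harvest. The strain is C57BL/6 by its own label but FVB/N by the protocol. The labels give an AAV8 dose of 1e12 genome copies per kg, where the methods of the study state a higher dose. The oncogene plasmids act in hepatocytes that took them up, whereas a liver sample can pool tumor, remaining liver and stroma.

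Depth ranged from 16664659 to 23908392 counts per liver. Levels are CPM, counts divided by library size, with the libraries scaled by the TMM factors of edgeR, which lay between 0.865 and 0.872 for healthy livers, between 1.12 and 1.22 for untreated HCC and between 0.942 and 1.03 with miR-22. They are not divided by gene length and are compared only within a gene. *Akt1*, the mouse counterpart of one injected oncogene, held 103 to 109 CPM in healthy livers, 1170 to 1673 CPM in untreated HCC and 671 to 1104 CPM in miR-22-treated HCC, in the direction that the labels give. The 8 hepatocyte markers summed to 132832 to 138782 CPM in healthy livers, 56425 to 70638 CPM in untreated HCC and 84585 to 103290 CPM in miR-22-treated HCC. *Alb* made up most of each sum, and of the 8 markers 6 were called lower and 1, the acute-phase gene *Hpx*, higher in untreated HCC against healthy. The cholangiocyte and progenitor markers summed to 50.04 to 52.3 CPM, 3408 to 6362 CPM and 1617 to 2770 CPM in the same order. These markers move with every comparison described here. Their part in the results was not tested, and in these bulk samples fewer cells of a type and less RNA per cell cannot be told apart.

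Sequence elements for the factors of the response stand in the promoters of some of the genes described here, among them *Asns*, *Chac1*, *Herpud1* and *Syvn1*, and they are shown for those genes. The promoter window ran from 250 bases before to 50 bases after the start of a gene in RefSeq (GRCm38.p6), and 31 of the 35 genes had one. The ER stress element, the site of ATF6 and NF-Y, was searched as CCAAT and CCACG separated by any 9 bases, on both strands. It stood in 9 of the 31 windows (29%) and in 37 of 27025 genes with a window (0.137%). The 35 genes were chosen as genes of this response, so these shares are a description and the contrast was not tested. The 9 genes were *Hspa5*, *Hsp90b1*, *Calr*, *Canx*, *Pdia6*, *Dnajc3* and *Creld2* among the chaperones, and *Syvn1* and *Derl3* in ERAD. In the windows below, positions are counted from the start of the gene, each sequence reads 5′ to 3′ on the strand that carries the element, and capitals mark its CCAAT and CCACG.
Hspa5, bases -65 to -47, chr2:34772020-34772048, + strand: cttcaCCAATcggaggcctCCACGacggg
Syvn1, bases -44 to -26, chr19:6046527-6046555, + strand: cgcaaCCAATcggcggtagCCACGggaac
Creld2, bases -126 to -108, chr15:88819515-88819543, - strand: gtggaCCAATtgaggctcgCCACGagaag
Derl3, bases -156 to -138, chr10:75893237-75893265, - strand: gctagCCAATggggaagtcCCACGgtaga

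The second form of this element, ATTGG and CCACG with 1 base between them, stood in the windows of *Dnajb11* and *Herpud1* and in 12 genes of the 27025 (0.0444%). The composite site that ATF4 shares with C/EBP factors, TGATGNAA, stood in 4 of the 31 windows (12.9%) against 4.51% of all genes with a window. Its carriers were *Asns*, *Chac1* and *Trib3* of the ATF4 arm and *Herpud1* of ERAD, so that *Herpud1* carried an element of both kinds. The UPR element TGACGTGG stood in 0 of the 31 windows and in 0.714% of all, which says only that these letters are not in these windows. Capitals mark the fixed bases of each element.
Herpud1, second form of the ER stress element, bases -52 to -42, chr8:94386368-94386396, + strand: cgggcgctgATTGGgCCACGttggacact
Herpud1, composite site, bases -112 to -105, chr8:94386307-94386334, - strand: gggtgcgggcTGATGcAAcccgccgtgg
Asns, composite site, bases -23 to -16, chr6:7693215-7693242, - strand: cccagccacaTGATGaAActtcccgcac
Chac1, composite site, bases -193 to -186, chr2:119351039-119351066, - strand: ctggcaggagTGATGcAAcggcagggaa
Trib3, composite site, bases 15 to 22, chr2:152344029-152344056, + strand: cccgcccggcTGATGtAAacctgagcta

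**Figure D1:**
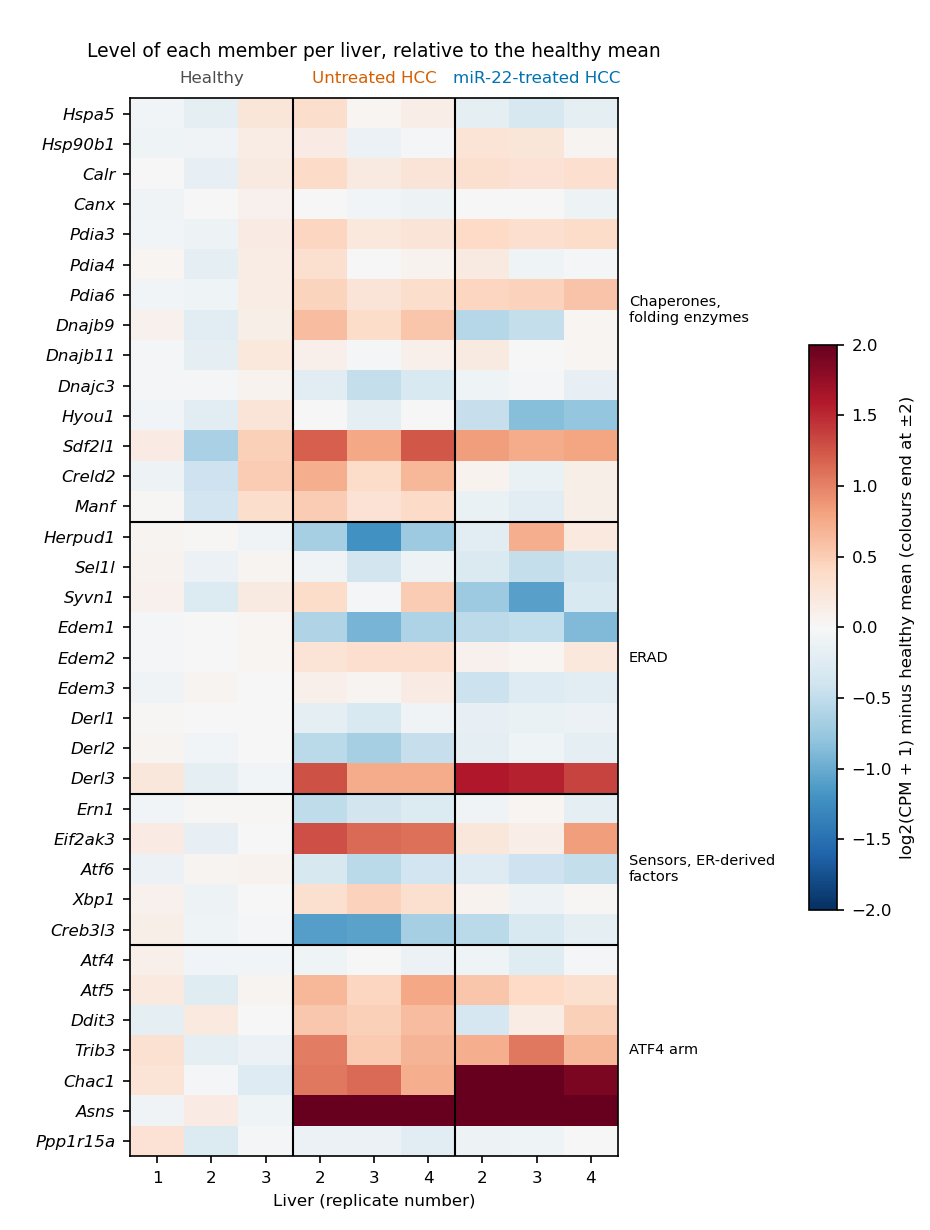
Level of the 35 genes (rows, grouped by arm) in each of the 9 livers (columns, replicate numbers as labelled), as log2(CPM + 1) minus the mean of the 3 healthy livers, with colours ending at ±2. *Asns*, *Chac1* and *Derl3* were higher than in healthy livers in all 6 HCC livers, most chaperones stayed near the healthy level, and *Hyou1* and *Syvn1* were lowest in the miR-22-treated livers.

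The first question was which arms the tumors moved. In untreated HCC against healthy liver, 5 of the 7 genes of the ATF4 arm were called higher, beside 1 of 14 chaperones, 1 of 9 ERAD genes and 1 of 5 sensors and factors. A gene was called where its adjusted p was below 0.05 and it differed by more than 1.5-fold. Over the 35 genes 8 were called higher and 3 lower, where 22.7% of all genes tested were called higher and 18.1% lower, so the share called higher was close to the background and the share called lower was below it. Groups did not overlap for 22 of the 35 genes, 14 higher and 8 lower, against 65.3% of all genes tested. The median log2 fold change was 0.62 in the ATF4 arm, 0.22 in chaperones, -0.18 in ERAD and -0.38 in sensors and factors, and 0.01 over all genes.

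*Asns*, the enzyme that makes asparagine and a textbook target of ATF4, changed most. It had 2, 5 and 2 counts in the healthy livers (0.126, 0.315 and 0.11 CPM), 9.09, 14.1 and 10.6 CPM in untreated HCC, and 6.06, 5.99 and 8.85 CPM in miR-22-treated HCC. The healthy livers were at or close to the floor of 3 counts, and every HCC liver was far above them. Summed over the livers and scaled by library size, 794 counts in untreated HCC against 9 in healthy liver gave a 62.6-fold ratio (95% exact interval 32.8 to 137, for counting error only), and the fitted log2 fold change was 5.92 ± 0.37 (SE, adjusted p = 8.48e-08).

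*Chac1*, which degrades glutathione, held 1.07, 0.693 and 0.440 CPM in healthy livers, 2.58, 2.78 and 1.83 CPM in untreated HCC and 6.35, 8.35 and 5.33 CPM in miR-22-treated HCC. The groups lay in 3 separate steps, each above the one before. The log2 fold change in untreated HCC against healthy was 1.71 ± 0.34 (adjusted p = 9.77e-04), from 36 counts in all in the healthy livers.

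*Trib3*, a pseudokinase that restrains AKT and ATF4, rose by a log2 fold change of 0.88 ± 0.22 (adjusted p = 0.00452), from 5.09, 3.34 and 3.57 CPM to 9.04, 6.13 and 6.91 CPM. *Atf5*, a factor translated in the same way as ATF4, rose by 0.62 ± 0.13 (adjusted p = 0.00161), from 278, 204 and 251 CPM to 384, 325 and 414 CPM. Its call rested on single livers, since the log2 fold change was 0.49 without healthy replicate 2 and 0.54 without untreated replicate 4, both under the 1.5-fold limit. *Ddit3*, which encodes the factor CHOP, stood at 7.73, 10.5 and 8.90 CPM in healthy livers, 13.5, 12.8 and 14.3 CPM in untreated HCC and 6.92, 10.1 and 12.9 CPM in miR-22-treated HCC. Untreated livers were above all healthy ones, but the log2 fold change of 0.59 ± 0.20 (adjusted p = 0.0221) lost its call without healthy replicate 1 or 3 or without untreated replicate 2 or 4, with values of 0.47, 0.56, 0.59 and 0.54. Exons of *Ddit3* also overlap those of *Mars1* on the opposite strand, which averaged 56.4 CPM, and the libraries did not keep the strand.

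*Atf4* itself did not follow its arm. It stood at 91.3, 81.9 and 81.8 CPM in healthy livers, 80.3, 85.6 and 78.1 CPM in untreated HCC and 79.6, 71.9 and 83.0 CPM in miR-22-treated HCC. All 3 groups overlapped, and the log2 fold changes were -0.06 ± 0.09 for untreated HCC against healthy and -0.06 ± 0.09 for miR-22-treated against untreated HCC. *Ppp1r15a*, the subunit that directs a phosphatase to eIF2α, was the other gene of the arm without a call, at -0.19 ± 0.16 and 0.10 ± 0.16 for the same comparisons.

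Of the 14 chaperones and folding enzymes 1 was called in untreated HCC, and by the adjusted p alone 5 were higher and 1 lower, where 29.4% of all genes tested were higher and 26.8% lower on that measure. *Hspa5* encodes BiP, the central chaperone of the ER, which also holds the sensors inactive. It stood at 1374, 1247 and 1696 CPM in healthy livers, 1830, 1470 and 1565 CPM in untreated HCC and 1255, 1140 and 1242 CPM in miR-22-treated HCC. Healthy and untreated livers overlapped (log2 fold change 0.17 ± 0.14, adjusted p = 0.317). *Sdf2l1*, a cofactor of BiP, was the 1 chaperone called higher by edgeR, at 29.3, 16.3 and 36.5 CPM in healthy livers and 60.9, 45.0 and 62.9 CPM in untreated HCC (log2 fold change 1.04 ± 0.22, adjusted p = 0.00140). No chaperone was called lower by edgeR, DESeq2 or limma, and 1 had a lower level at an unadjusted p under 0.05. That gene was *Dnajc3*, which inhibits PERK, at -0.33 ± 0.10. Smaller rises under the fold limit passed the test on the adjusted p in *Pdia3* (0.30), *Pdia6* (0.35), *Dnajb9* (0.51) and *Creld2* (0.54). *Creld2* was called by limma (0.59, adjusted p = 0.0178), with the upper quartile (0.59), with at least 10 counts in every library (0.59), and without healthy replicate 3 (0.84) or untreated replicate 3 (0.65). *Hsp90b1*, *Canx*, *Pdia4* and *Dnajb11* overlapped between all 3 groups.

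ERAD genes went in both directions in untreated HCC. *Herpud1*, which recruits the ubiquitin ligase complex to damaged proteins, held 364, 354 and 332 CPM in healthy livers, 219, 150 and 212 CPM in untreated HCC and 302, 580 and 401 CPM in miR-22-treated HCC. All untreated livers were below all others. Its log2 fold change in untreated HCC against healthy was -0.85 ± 0.20 (adjusted p = 0.00322). *Edem1*, a lectin that picks glycoproteins for degradation, stood at 308, 314 and 325 CPM in healthy livers, 207, 166 and 206 CPM in untreated HCC and 218, 224 and 171 CPM in miR-22-treated HCC. It was lower in all 6 HCC livers than in any healthy liver, by a log2 fold change of -0.71 ± 0.12 (adjusted p = 3.11e-04) without the treatment. *Derl3*, a member of the derlin family of channel proteins, was near the detection limit and went the other way, at 2.01, 1.26 and 1.48 CPM in healthy livers, 5.20, 3.31 and 3.29 CPM in untreated HCC and 6.75, 6.44 and 5.52 CPM in miR-22-treated HCC. The log2 fold change was 1.31 ± 0.27 (adjusted p = 0.00104). Its relative *Derl2* was lower in untreated HCC by -0.56 ± 0.09, under the fold limit, and *Derl1* by -0.19 ± 0.09, which did not pass.

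The sensors did not move together either. *Eif2ak3*, the gene of PERK, stood at 30.6, 24.1 and 27.4 CPM in healthy livers, 68.0, 60.9 and 59.5 CPM in untreated HCC and 31.9, 30.0 and 49.6 CPM in miR-22-treated HCC. All untreated livers were above all others, and the rise of 1.20 ± 0.17 (adjusted p = 5.36e-05) held its call when any single liver was left out. *Ern1* and *Atf6* were lower by -0.38 ± 0.09 and -0.42 ± 0.09, both past the test on the adjusted p and under the fold limit. *Xbp1* was higher by 0.37 ± 0.10 (adjusted p = 0.00594), at 245, 215 and 231 CPM in healthy livers and 286, 317 and 287 CPM in untreated HCC, also under the fold limit. *Creb3l3* encodes CREBH, a factor of liver lipid and acute-phase genes that is cut at the Golgi as ATF6 is. It fell from 359, 312 and 321 CPM in healthy livers to 154, 157 and 207 CPM in untreated HCC (log2 fold change -0.94 ± 0.13, adjusted p = 6.79e-05), beside the fall of most hepatocyte markers given above.

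**Figure D2:**
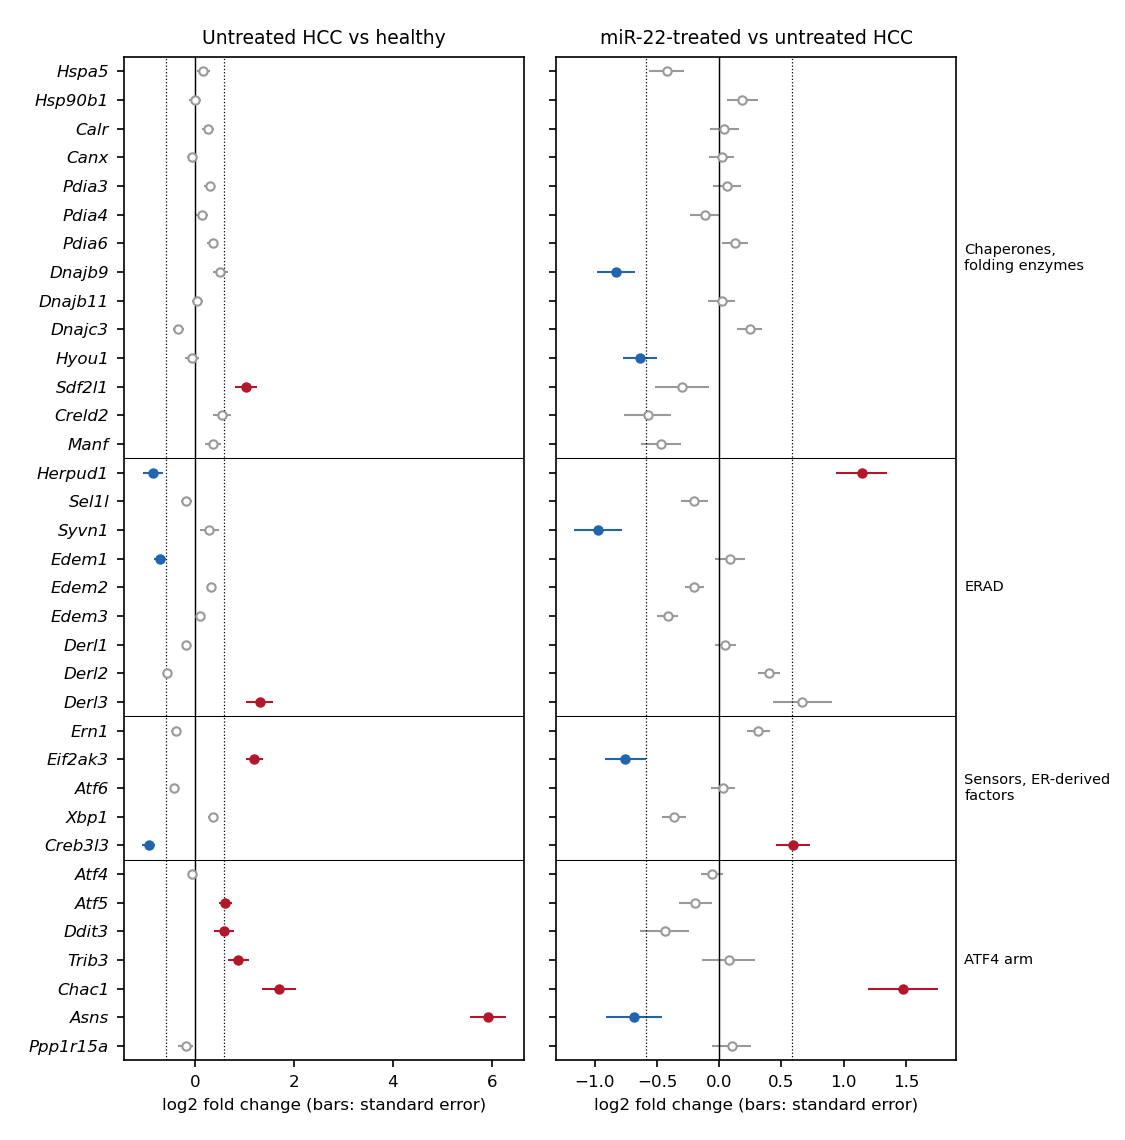
Log2 fold change of each of the 35 genes with its standard error, for untreated HCC against healthy (left) and miR-22-treated against untreated HCC (right), with the 1.5-fold limits as dotted lines. Filled points are called (red higher, blue lower): 8 higher and 3 lower on the left, 3 higher and 5 lower on the right, and the 2 panels have different scales and share the untreated livers.

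The direction of small changes depended on the scaling. Without TMM, dividing by library totals alone, the median log2 fold change of all genes in untreated HCC against healthy was 0.43 in place of 0.01. Of the 35 genes 18 were then called higher and 0 lower, where 38.1% of all genes tested were called higher and 9.49% lower. The shift moves all genes alike, so small negative log2 fold changes such as those of *Dnajc3*, *Ern1*, *Atf6* and *Derl1* turned above 0, and the lower calls of *Herpud1* (-0.44), *Edem1* (-0.29) and *Creb3l3* (-0.52) were lost. The arm medians relative to the median of all genes hold under both scalings by construction.

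The second question was what miR-22 changed in the tumor livers. Against untreated HCC, 3 of the 35 genes were called higher and 5 lower, where 8.32% of all genes tested were called higher and 5.47% lower. The genes called lower were the chaperones *Dnajb9* and *Hyou1*, the ERAD ligase *Syvn1*, the sensor gene *Eif2ak3* and *Asns*. Those called higher were *Herpud1*, *Chac1* and *Creb3l3*. Groups did not overlap for 19 of the 35 genes, 8 higher and 11 lower, against 39.3% of all genes tested. Arm medians were close to 0, at -0.05 for chaperones, 0.05 for ERAD, 0.03 for sensors and factors and -0.06 for the ATF4 arm.

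*Syvn1* encodes HRD1, the ubiquitin ligase at the core of ERAD. It held 117, 91.2 and 124 CPM in healthy livers, 142, 107 and 157 CPM in untreated HCC and 65.9, 51.3 and 89.1 CPM in miR-22-treated HCC. The treated livers were below all 6 others. The log2 fold change was -0.97 ± 0.19 (adjusted p = 0.00386) against untreated HCC and -0.69 ± 0.19 (adjusted p = 0.0149) against healthy liver. Its call against untreated HCC held when any single liver was left out, with values from -1.20 to -0.80, and its call against healthy liver was lost without healthy replicate 3 (-0.61) or treated replicate 3 (-0.52). Exons of *Syvn1* overlap those of *Mrpl49*, which averaged 29.7 CPM, and reads of an overlap could not be assigned by strand. The same holds for *Xbp1* with *Ccdc117*, *Manf* with *Dcaf1*, *Derl2* with *Mis12* and *Atf5* with *Nup62*, which averaged 17.5 to 40.4 CPM. *Manf* also shared 3962 exon bases with *Rbm15b* on its own strand, which averaged 31.3 CPM.

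*Hyou1*, a large chaperone that exchanges the nucleotide of BiP, showed the same order, at 359, 322 and 444 CPM, 373, 328 and 375 CPM, and 270, 206 and 217 CPM. The log2 fold change was -0.64 ± 0.14 (adjusted p = 0.00634) against untreated HCC and -0.70 ± 0.14 (adjusted p = 0.00195) against healthy liver. Its calls were close to the fold limit, and were lost without treated replicate 3 in the first case (-0.56) and without healthy replicate 3 in the second (-0.58). *Edem3*, a mannosidase-like protein of ERAD, also lay below all other livers, at 59.5, 67.1 and 68.9 CPM in miR-22-treated HCC against 83.7 to 90.2 CPM in untreated HCC and 77.1 to 83.7 CPM in healthy livers, but under the fold limit (log2 fold change -0.41 ± 0.08, adjusted p = 0.00413).

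*Dnajb9*, a J-domain cochaperone that returns BiP to IRE1, stood at 91.3, 74.8 and 94.0 CPM in healthy livers, 132, 111 and 127 CPM in untreated HCC and 58.1, 61.8 and 88.2 CPM in miR-22-treated HCC. Treated livers were below all untreated ones and overlapped the healthy ones, with a log2 fold change of -0.83 ± 0.15 (adjusted p = 0.00218). *Eif2ak3* fell with miR-22 by 0.75 ± 0.16 on the log2 scale (adjusted p = 0.00615). Its treated replicate 3, at 30.0 CPM, lay within the healthy values, and replicates 2 and 4, at 31.9 and 49.6 CPM, lay between healthy and untreated livers. Against healthy liver the treated livers were 0.45 ± 0.17 higher, which did not pass (adjusted p = 0.0541). *Xbp1* fell by 0.37 ± 0.10 (adjusted p = 0.0161) to 241, 215 and 234 CPM, under the fold limit and overlapping the healthy livers. *Hspa5* (-0.42 ± 0.14, adjusted p = 0.0470), *Creld2* (-0.58 ± 0.19, adjusted p = 0.0431) and *Manf* (-0.47 ± 0.16, adjusted p = 0.0486) passed the test on the adjusted p but not the fold limit, and DESeq2 called *Creld2* at -0.61. No chaperone was called higher by edgeR, DESeq2 or limma, with *Dnajc3* (0.24 ± 0.10) the 1 gene at an unadjusted p under 0.05.

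*Herpud1* rose with miR-22 by a log2 fold change of 1.14 ± 0.21 (adjusted p = 0.00215), which was the largest rise outside *Chac1* among the 35 genes. Its treated livers, at 302, 580 and 401 CPM, were uneven and included the healthy values of 332 to 364 CPM. Without treated replicate 3, the highest, the log2 fold change was 0.86. *Derl2* (0.40 ± 0.09, adjusted p = 0.00603) and *Ern1* (0.31 ± 0.09, adjusted p = 0.0283) had the same order, lower in untreated HCC and higher again with miR-22, both under the fold limit. *Creb3l3* rose to 226, 267 and 287 CPM, between untreated and healthy livers and overlapping neither, by 0.59 ± 0.13 (adjusted p = 0.00739). That value lies at the fold limit, and the call was lost when untreated replicate 2 or 3 or treated replicate 3 or 4 was left out, with log2 fold changes of 0.51, 0.53, 0.57 and 0.51. DESeq2 (0.56), its size factors in edgeR (0.57) and the upper quartile (0.55) left it below the limit as well. Of the 8 hepatocyte markers 4 were called higher with miR-22 as well.

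In the ATF4 arm the genes with the largest rises in the tumors parted with miR-22. *Chac1* rose a second time, by a log2 fold change of 1.48 ± 0.28 (adjusted p = 0.00292), to 3.19 ± 0.33 above healthy liver (adjusted p = 1.52e-05). It was called under each alternative in which it was tested, with log2 fold changes against untreated HCC from 1.23 to 1.62. *Asns* fell by 0.69 ± 0.22 (adjusted p = 0.0425) and remained 5.23 ± 0.38 above healthy liver. Treated livers held 386 counts in all against 794, a ratio of 0.632 (95% exact interval 0.558 to 0.715, for counting error only). This call was lost without untreated replicate 3 (-0.50) or 4 (-0.73) and without treated replicate 2 (-0.60) or 3 (-0.59), and limma did not make it (-0.69, adjusted p = 0.158). *Trib3* (0.08 ± 0.21) and *Atf5* (-0.19 ± 0.13) overlapped between the 2 HCC groups. *Ddit3* spread in the treated livers from the healthy to the untreated range (-0.44 ± 0.19, adjusted p = 0.124), and passed at -0.68 without treated replicate 4.

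**Figure D3:**
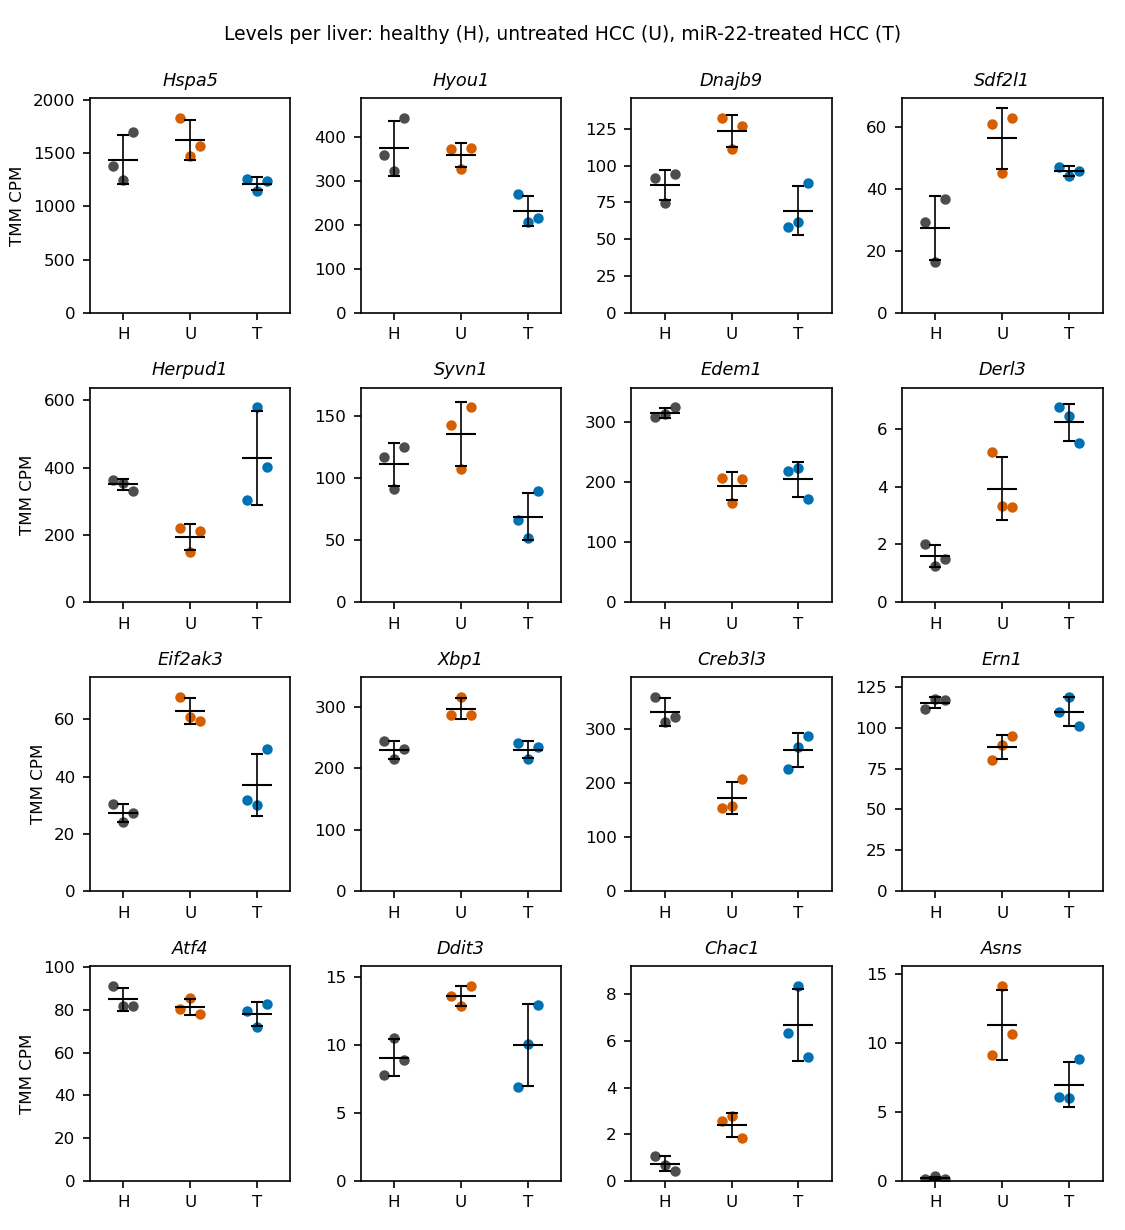
Levels in CPM (TMM scaling) in each liver for 16 of the genes, with points for livers, horizontal bars for the mean and whiskers for the SD over 3 livers in healthy (H), untreated HCC (U) and miR-22-treated HCC (T), each panel starting at 0. *Chac1* and *Derl3* lie higher from group to group, *Eif2ak3*, *Dnajb9* and *Xbp1* peak in untreated HCC, *Herpud1* and *Ern1* are lowest there, and *Hyou1* and *Syvn1* are lowest in the treated livers.

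With library totals in place of TMM, the median of all genes in miR-22-treated against untreated HCC moved to -0.23 and the calls became 2 higher and 11 lower, where 5.31% of all genes tested were called higher and 13.8% lower. *Herpud1* (0.90) and *Chac1* (1.23) remained called higher, and *Creb3l3* (0.36) lost its call.

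The third comparison, miR-22-treated HCC against healthy liver, shares its groups with the other comparisons and shows what still differed. Of the 35 genes 5 were called higher and 3 lower, where 16.9% of all genes tested were called higher and 7.05% lower. *Asns*, *Chac1*, *Trib3* (0.96 ± 0.22), *Derl3* (1.97 ± 0.26) and *Sdf2l1* (0.74 ± 0.22) were above healthy liver. *Syvn1*, *Hyou1* and *Edem1* (-0.63 ± 0.12) were below it. The calls of *Sdf2l1* and *Edem1* were lost without healthy replicate 2 (0.46) and without treated replicate 4 (-0.51). With library totals 8 genes were called higher and 0 lower, where 21.7% of all genes tested were called higher and 3.77% lower. *Derl3* is a gene of secretory cells, and treated replicate 2 had 557 CPM of pancreatic acinar markers, against 20.1 to 44.8 CPM in the other 8 livers and with *Amy2a5* at 0 in all 9. Without that liver *Derl3* stood 1.90 above healthy liver. Plasma cells also express *Derl3*. The 10 plasma and B cell markers summed to 355 to 381 CPM in healthy livers, 241 to 270 CPM in untreated HCC and 250 to 322 CPM in miR-22-treated HCC, but *Sdc1*, which hepatocytes express too, made up most of each sum. The immunoglobulin light chain gene *Igkc* held 1.89, 1.13 and 2.25 CPM in healthy livers, 7.97, 14.6 and 2.88 CPM in untreated HCC and 4.58, 12.6 and 8.18 CPM in miR-22-treated HCC, so that it rose beside *Derl3* (log2 fold change 2.25 ± 0.54 without and 2.24 ± 0.55 with miR-22). *Jchain* was also called higher in untreated HCC (1.74 ± 0.69, adjusted p = 0.0477), *Sdc1* was lower (-0.61 ± 0.12), and *Tnfrsf17* was at or near 0 in all livers. The part of these cells in the values of *Derl3* was not tested.

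By the order of the livers, *Dnajb9*, *Edem2*, *Eif2ak3* and *Xbp1* lay above healthy liver in untreated HCC and overlapped it with miR-22 (*Eif2ak3* with 1 liver), and *Dnajc3*, *Herpud1* and *Ern1* lay below it and then overlapped it. *Hyou1*, *Syvn1* and *Edem3* overlapped between healthy and untreated livers and lay below both with miR-22. *Chac1* lay higher at each step, and so did *Derl3*, whose second step did not pass (0.67 ± 0.24, adjusted p = 0.0592). *Calr*, *Pdia3*, *Pdia6*, *Sdf2l1*, *Atf5* and *Trib3* lay above healthy liver in both HCC groups, and *Edem1*, *Derl1* and *Atf6* lay below it. These orders are descriptions of the livers, in which the changes of *Calr* and *Derl1* against healthy liver and of *Edem2* and *Dnajc3* with miR-22 did not pass the test, and the overlap with healthy liver was not tested.

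Averaged over an arm, with each gene as log2(CPM + 1) minus its mean over the 9 livers, the ATF4 arm ranged from -0.65 to -0.44 in healthy livers, from 0.25 to 0.31 in untreated HCC and from 0.20 to 0.34 in miR-22-treated HCC. Healthy livers were below all HCC livers, and the HCC groups overlapped. *Asns* carried part of this, and without it the ranges were -0.43 to -0.17, 0.08 to 0.18 and 0.15 to 0.29. Chaperones ranged from -0.31 to 0.12, from 0.02 to 0.26 and from -0.10 to -0.01, so that treated livers lay below untreated ones and within the healthy spread. The chaperone mean followed healthy replicate 2 at the bottom and healthy replicate 3 at the top. ERAD and the sensors overlapped in all 3 groups.

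**Figure D4:**
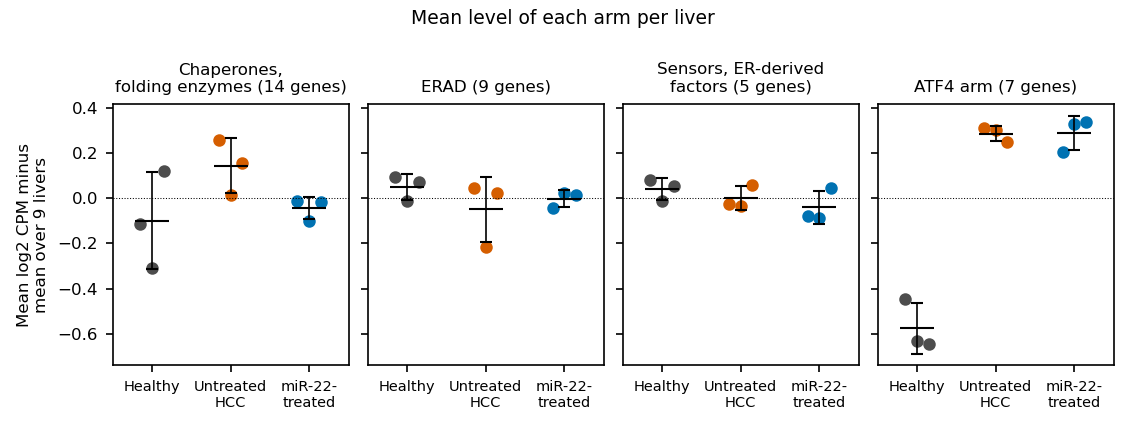
Mean level of each arm per liver, as log2(CPM + 1) minus the gene's mean over the 9 livers and averaged over the genes of the arm, with the mean and SD over 3 livers. Only the ATF4 arm separates healthy from HCC livers, with healthy livers at -0.65 to -0.44 and HCC livers at 0.20 to 0.34.

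Other genes of the pathways were counted from lists that hold none of the 35. Among 29 other ATF4 targets, 16 were called higher and 3 lower in untreated HCC against healthy, beside the background of 22.7% and 18.1%. The enzymes of serine synthesis *Psat1* (log2 fold change 5.75 ± 0.29) and *Phgdh* (6.65 ± 0.34) had the smallest p. With miR-22, 2 were called higher, *Cebpb* (1.07 ± 0.16) and the cystathionine-cleaving *Cth* (1.31 ± 0.23), and 5 lower, beside 8.32% and 5.47% of all genes tested. *Cth* was among the 3 called lower in untreated HCC (-2.36). *Psat1* (-0.97) and *Phgdh* (-1.02) were among the 5 called lower with miR-22. In miR-22-treated HCC against healthy liver 17 of the 29 were called higher and 2 lower, beside 16.9% and 7.05%. Of 12 aminoacyl-tRNA synthetases that ATF4 raises, 3 were called higher in untreated HCC, a share near the background (*Gars* 1.11 ± 0.10, *Sars* 0.71 ± 0.09), and by the adjusted p alone 7 were higher and 2 lower, where 29.4% and 26.8% of all genes tested were. With miR-22 6 of the 12 were lower by the adjusted p alone, where 10.4% of all genes tested were, and *Wars* passed the fold limit (-0.61 ± 0.10).

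The other lists hold genes of the ER side, and their counts stand beside the same shares of all genes, 22.7% higher and 18.1% lower in untreated HCC and 8.32% higher and 5.47% lower with miR-22. Most of these lists lay at or below the shares of untreated HCC. In untreated HCC, 4 of 25 other folding enzymes were higher and 3 lower, led by the proline isomerase *Fkbp11* (2.69 ± 0.23) and the disulfide reductase *Dnajc10* (1.35 ± 0.13), and with miR-22 both *Fkbp11* (-0.64 ± 0.20) and *Txndc11* (-0.63 ± 0.13) were called lower. Of 23 genes of the translocon, signal peptidase and ER exit, 3 were higher and 1 lower, led by the retrieval receptor *Kdelr3* (3.79 ± 0.34), which fell with miR-22 by 1.04 ± 0.26, as the coat protein gene *Sec23b* did by 0.63 ± 0.10. Of 22 other ERAD factors, 4 were lower in untreated HCC, with *Marchf6* (-1.08 ± 0.11) and *Os9* (-0.74 ± 0.09) the smallest in p, and none was higher by edgeR, DESeq2 or limma, with 2 higher at an unadjusted p under 0.05. With library totals that list gave 5 higher and 1 lower, where 38.1% of all genes tested were called higher and 9.49% lower. In miR-22-treated against untreated HCC none of these 22 was called by edgeR, DESeq2 or limma, with 8 higher and 3 lower at an unadjusted p under 0.05. By the adjusted p alone 7 of the 22 were higher and 1 lower, where 13.6% and 10.4% of all genes tested were. *Crebrf*, a regulator that opposes CREB3 factors, had the smallest p of 12 other sensors and regulators, of which 3 were higher and 2 lower in untreated HCC and 1 higher and 2 lower with miR-22. It stood at -2.19 ± 0.13 in untreated HCC and 1.84 ± 0.13 with miR-22. Of 12 genes for eIF2 kinases, their phosphatase and eIF2B, 1 was higher (*Eif2b2*, 0.64 ± 0.11) and 1 lower in untreated HCC, the constitutive phosphatase subunit *Ppp1r15b* (-1.004 ± 0.09). None of these 12 was called with miR-22 by edgeR, DESeq2 or limma, with 2 higher and 3 lower at an unadjusted p under 0.05.

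**Figure D5:**
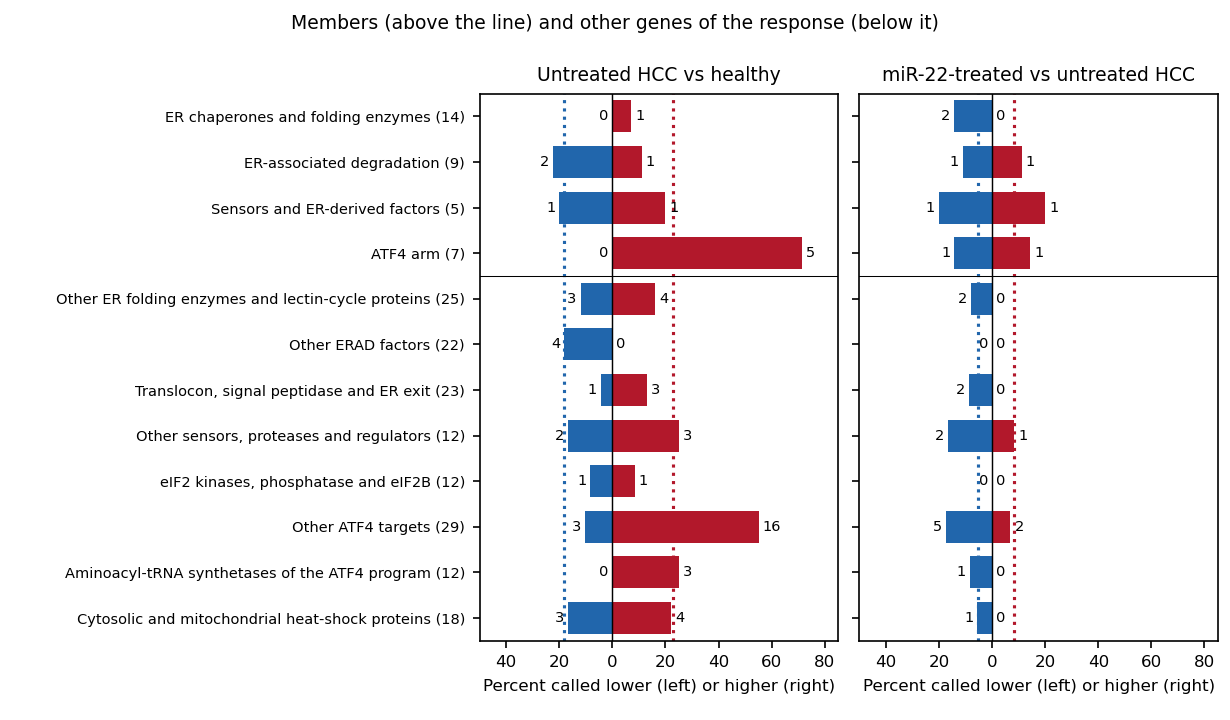
Percent of the tested genes of each arm (above the line) and of each wider list (below it, number tested in brackets) that were called higher (red) or lower (blue), with the counts beside the bars and dotted lines for the share of all genes tested. In untreated HCC against healthy, the ATF4 arm (5 of 7 higher) and the other ATF4 targets (16 of 29 higher) pass the dotted line of 22.7% by the most.

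Fold changes of genes with and without the promoter elements overlapped. The 11 genes with either form of the ER stress element had a median log2 fold change of 0.17 in untreated HCC against healthy and of 0.04 with miR-22, with 1 called higher and 1 lower each time, beside 22.7% and 18.1% of all genes tested in the first comparison and 8.32% and 5.47% in the second. *Syvn1* (-0.97) and *Herpud1* (1.14), whose elements are printed above, lay at the ends of that range with miR-22. The 4 genes with the composite site ranged from -0.85 (*Herpud1*) to 5.92 (*Asns*) in untreated HCC, and from -0.69 (*Asns*) to 1.48 (*Chac1*) with miR-22. Their medians were higher, at 1.29 and 0.61. Of these 4 genes, 3 were called higher and 1 lower in untreated HCC, and 2 higher and 1 lower with miR-22, beside the same shares of all genes. The 17 genes with a window and neither element had medians of 0.13 and -0.19.

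Matches to miR-22 itself were looked for in the 3′ UTRs of the 35 genes. Mature miR-22-3p (RefSeq, GRCm38.p6, chr11:75463772-75463793, + strand) is printed with its seed, bases 2 to 8, in capitals, followed by the 4 matches to the seed, whose capitals mark GGCAGCT (GRCm39, GENCODE canonical transcripts).
miR-22-3p: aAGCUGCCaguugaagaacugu
Pdia6, chr12:17334076-17334082, + strand: aagttcttccgGGCAGCTgtctgccgctg
Dnajb11, chr16:22691179-22691185, + strand: tgagctaagatGGCAGCTttagagaataa
Dnajc3, chr14:119216441-119216447, + strand: cagtgcgctgaGGCAGCTgtctctgttgt
Ern1, chr11:106288623-106288629, - strand: ggccaccaggtGGCAGCTaagaccagaca

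The match stood in 4 of the 35 genes (11.4%), against 2282 of 13626 tested genes with a 3′ UTR (16.7%). The median length of the 3′ UTRs was 1398 bases in the 35 genes and 1326 bases in the tested genes. In *Ern1* the match is followed by an A, which makes it the longest type of seed site. The log2 fold changes with miR-22 were 0.13 ± 0.10 for *Pdia6*, 0.02 ± 0.11 for *Dnajb11*, 0.24 ± 0.10 for *Dnajc3* and 0.31 ± 0.09 for *Ern1*. With library totals *Pdia6* (-0.11) and *Dnajb11* (-0.21) turned below 0. The 5 genes called lower with miR-22, *Dnajb9*, *Hyou1*, *Syvn1*, *Eif2ak3* and *Asns*, had no such match in the canonical 3′ UTR. Sites matching fewer bases of the seed, coding sequence and other transcripts were not searched. The level of miR-22 itself is not measured by these libraries.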

How the data were processed

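The authors deposited counts per gene as whole numbers, which were used for every result. Per the study's methods and the submitters' notes, non-directional libraries from total RNA were quantified with Salmon on GRCm39 and passed to DESeq2 1.18, with FastQC 0.11.7 for quality. The deposited table of normalized values was not used. Genes passing filterByExpr (15717 of 55401) entered 1 fit of the 3 groups with edgeR 4.0.16 under R 4.3.3, scaled by TMM and tested by its two-sided quasi-likelihood method, with Benjamini-Hochberg adjustment over all genes tested. Errors are SE of the log2 fold change. The study gives n = 3 for each group, and the labels do not say outright that these are separate mice, so p-values measure the spread between these samples, which may be technical. The 35 genes and all lists were chosen with earlier results of these data known. Of wider lists, up to 2 called genes of the smallest p per comparison were named. Alternatives were the Wald test of DESeq2 1.42.0, scaling by its size factors, by library totals or by the upper quartile, no filter, at least 10 counts in every library, the 2 groups alone, no fold threshold, glmTreat, limma-trend 3.58.1 (prior count 1), the replicate number as a block, and each liver left out. The search for miR-22 seed matches and the ATF4 arm without *Asns* were added after the data were seen. Scripts were tested on simulated data. Figures used Python 3.11.15 and matplotlib 3.10.9. The 35 genes lie on GRCm39 as GENCODE places them, and *Atf6*, *Derl1*, *Hyou1* and *Manf* had no promoter window in the table used.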

Additional observations from a re-analysis of the deposited data

How the results depend on the processing

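Of the 35 genes, 11 were called in untreated HCC against healthy, 8 in miR-22-treated against untreated HCC and 8 in miR-22-treated HCC against healthy. Over all 15717 genes tested the calls were 6417, 2167 and 3772. Library totals gave 18 and 13 of the 35 genes for the first and second comparison, beside 7478 and 2999 of all. No fold threshold gave 21, 15 and 14, beside 8838, 3777 and 5732 of all. With glmTreat, which tests against the 1.5-fold limit, 6, 1 and 3 were called, beside 4536, 468 and 2010 of all. Under glmTreat *Chac1* alone kept its call with miR-22. In every other alternative the counts of the 35 genes lay within 1.5 times, except for 5 in the second comparison without treated replicate 3. Leaving out single livers gave 10 to 12, 5 to 8 and 6 to 8. No log2 fold change that was called turned its sign under any alternative run. Across single genes and alternatives, 56 calls were lost and 56 were gained. Replicate numbers did not pair the livers: deviations of same-numbered untreated and treated livers correlated at -0.12, -0.12 and -0.23 over the tested genes, and no liver correlated best with its own number. With the replicate number as a block, 5863, 958 and 3044 of all genes tested were called (15387 tested in the second comparison). With DESeq2 size factors as well, 1041 were called in the second comparison. Of the 35 genes the blocked fits called 10, 6 and 7, and 6 in the second comparison with DESeq2 size factors as well. The calls of *Herpud1* (1.102, adjusted p = 0.0620) and *Asns* (-0.69, adjusted p = 0.100) with miR-22, of *Ddit3* (0.37, adjusted p = 0.206) in untreated HCC and of *Sdf2l1* (0.78, adjusted p = 0.0999) in miR-22-treated HCC against healthy were lost there. Depth limits *Asns*, *Chac1* and *Derl3* in healthy livers, where *Asns* had 2 to 5 counts per liver. Groups of 3 livers were not searched for single outlying values.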

Other observations

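Heat-shock proteins of the cytosol and mitochondria, which answer to unfolded proteins outside the ER, were counted as a further list. Of 18, 4 were called higher and 3 lower in untreated HCC against healthy, close to the 22.7% and 18.1% of all genes tested, with the small heat-shock protein *Hspb1* at a log2 fold change of 2.96 ± 0.45 (adjusted p = 1.10e-04) and the mitochondrial chaperone *Trap1* at -0.76 ± 0.11 (adjusted p = 4.86e-05). With miR-22 the cochaperone *Bag3* was called lower, by -0.76 ± 0.15 (adjusted p = 0.00376). In miR-22-treated HCC *Hspb1* stood 2.55 ± 0.45 above healthy liver (adjusted p = 9.09e-04). Neutrophil markers summed to 1.76 to 4.53 CPM in healthy livers, 17.5 to 22.9 CPM in untreated HCC and 16.8 to 25.3 CPM in miR-22-treated HCC, and stellate cell and fibroblast markers to 362 to 433 CPM, 866 to 1002 CPM and 729 to 826 CPM.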
